A study of Mus musculus with 4 samples.

Results

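The regions described here are the 417 tumor anti-MYCN peaks that the authors' table places downstream of the gene it pairs with each peak, that is, past the end of that gene. They were chosen by the table's own position column, with each interval counted once and unplaced or unlocalized scaffolds left out. They made up 27.3% (exact Clopper-Pearson 95% interval 25.1 to 29.6) of the 1527 tumor peaks on assembled chromosomes, out of 1617 tumor peaks in all. Of the rest on assembled chromosomes, 724 lay upstream of the paired gene, 385 inside it and 1 over its end.

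The peaks come from CUT&RUN, in which an antibody brings a nuclease to a chromatin protein and the cut fragments are sequenced. The study profiled mouse liver tumors driven together by MYCN and AKT, and matched liver without tumor, with 1 anti-MYCN library and 1 sonicated input library for each tissue. The sources used here give no promoter or delivery route for the oncogenes and no strain, age or number of mice, and a peak table cannot be checked against liver marker genes. The peaks carry no read counts, so sequencing depth is unknown. With 1 library per group nothing was tested between tissues. The intervals below take each peak as an independent count and include no error between samples.

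MYCN is a transcription factor of the MYC family. It pairs with MAX to bind DNA, with the E-box CACGTG as its best known site, and in tumors it is known for raising the expression of genes for ribosome production, metabolism and cell division. Many such sites lie near gene starts, while sequence past the end of a gene can hold enhancers of that gene or of its neighbours, or no regulatory element at all. AKT is a kinase that carries growth signals from insulin and other growth factor receptors.

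MicroRNA genes were paired with 51 of 416 downstream peaks with a matched gene, against 23 of 719 upstream peaks. Counted by gene they were 24 and 23, as 23 of the 51 downstream peaks were paired with Mir101c alone. The mature sequences of the microRNAs with the most or the strongest peaks, and of 4 well-known ones, are shown first. MicroRNAs are short RNAs that guide silencing of messenger RNAs mainly through their seed, bases 2 to 8. Sequences are RefSeq's for GRCm38.p6, 5′ to 3′, with the seed in capitals.
miR-101c: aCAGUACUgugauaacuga
miR-3072-5p: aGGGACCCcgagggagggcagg
miR-3072-3p: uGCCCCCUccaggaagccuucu
miR-7232-5p: uACAUGGAugauuguuuuuccaag
miR-7232-3p: uGGUUGAAuucgacuuuggggc
miR-6348: uCAGCCUUuauaaggugugugu
miR-31-5p: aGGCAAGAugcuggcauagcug
miR-129-5p: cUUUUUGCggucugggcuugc
miR-204-5p: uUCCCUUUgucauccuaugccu
miR-365-3p: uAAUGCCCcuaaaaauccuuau
Of the 24 microRNA genes paired with downstream peaks, 22 had mature sequences in the table. Their 34 mature sequences had 34 different seeds, so no pair of these microRNAs shared a seed.

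The peaks themselves could not be read as sequence, because no genome was used here. The starts of the paired genes could be, as windows from 250 bases before to 50 bases after each RefSeq start. The E-box CACGTG, which reads the same on both strands, was present in such a window for 20 of 252 genes paired with downstream peaks that had one (7.94%, exact Clopper-Pearson interval 4.92 to 11.99). Over all 27025 genes with a window it was 8.09%, and for genes paired with upstream peaks 59 of 495 (11.9%, 9.20 to 15.1). No downstream peak overlapped any gene's window (0 of 417, upper limit 0.881%), so none of the E-boxes found in these windows lay in a downstream peak. The stretches around the motif are shown, with the E-box in capitals, for 4 of these genes: the 2 whose peaks lay nearest, and 2 with known roles in cell identity or protein breakdown.
Fgf21, chr7:45615505-45615570, minus strand: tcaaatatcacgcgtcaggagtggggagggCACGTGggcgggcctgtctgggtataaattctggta
Faxc, chr4:21931277-21931325, plus strand: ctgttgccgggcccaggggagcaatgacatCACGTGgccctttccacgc
Lgmn, chr12:102439106-102439171, minus strand: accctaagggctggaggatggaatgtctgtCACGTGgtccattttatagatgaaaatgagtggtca
Klf4, chr4:55532622-55532687, minus strand: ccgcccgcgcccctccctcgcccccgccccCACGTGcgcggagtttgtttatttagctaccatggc
Each stretch lies before the transcript start that its window belongs to. For Faxc and Lgmn that start is inside the span RefSeq gives the gene. A match of letters is a description and does not show binding.

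The downstream peaks held nearly all of the very strong signal of the tumor list. The measure of strength is the −log10 q that the authors' peak caller gave each peak, used here to rank peaks within the tumor list. Of the 30 tumor peaks on assembled chromosomes with a value of 1000 or more, 28 were downstream (93.3%, 77.9 to 99.2), and of the 78 with 100 or more, 46 were (59.0%, 47.3 to 70.0). A value of 10 or more was reached by 141 downstream peaks (33.8%, 29.3 to 38.6), against 27.7% of all tumor peaks on assembled chromosomes and 191 of 724 upstream peaks (26.4%, 23.2 to 29.8). The median was 6.81 downstream (95% order-statistic interval 6.45 to 7.88), 5.54 upstream (5.48 to 5.61) and 5.54 inside genes (5.37 to 6.001).

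**Figure D1:**
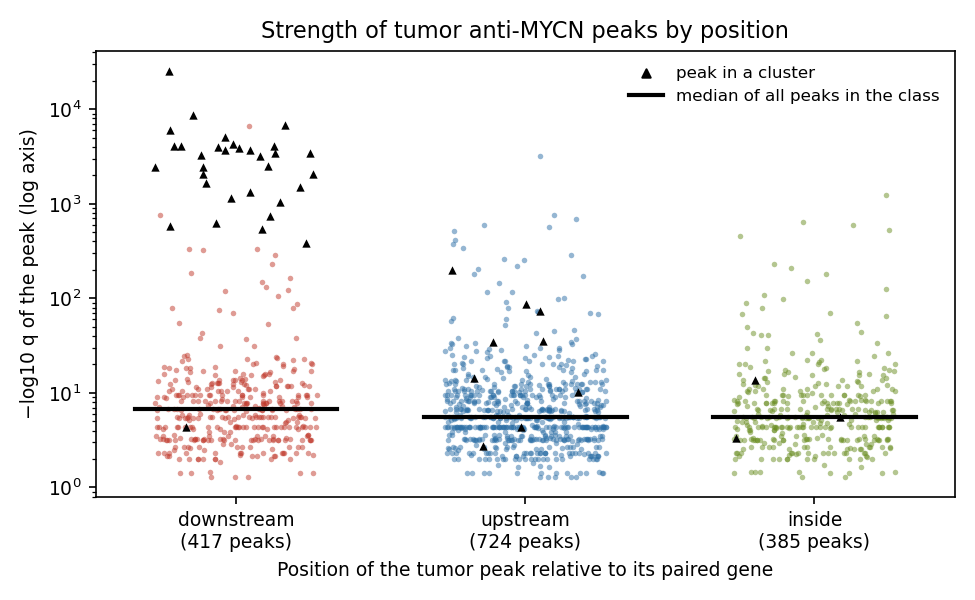
Each point is 1 tumor peak, plotted by its −log10 q (log axis) and by its position relative to the paired gene; triangles are peaks in clusters and bars are medians of all peaks in a class. The triangles of the downstream class fill the range above 1000, while the medians of the 3 classes, 6.81, 5.54 and 5.54, lie close together.

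Nearly all downstream peaks of 1000 or more came from 3 clusters, a cluster being 3 or more tumor peaks with neighbours at most 10 kb apart. They held 33 downstream peaks and no others. Counting any cluster, 7.91% of downstream peaks and 2.95% of all tumor peaks on assembled chromosomes lay in one, as 9 upstream and 3 inside peaks lay in further clusters. Outside clusters, 109 of 384 downstream peaks had a value of 10 or more (28.4%, 23.9 to 33.2) and 184 of 715 upstream peaks did (25.7%, 22.6 to 29.1), and these intervals overlap widely. The share with 1000 or more outside clusters was 1 of 384 downstream and 1 of 715 upstream.

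The largest cluster lay at the start of the assembled part of chromosome 9, from 3000004 to 3038307, where 23 peaks covered 33445 bp of the 38304 bp span (87.3%). All 23 were paired with Mir101c, whose mature sequence lies just past the cluster on the minus strand, at 3038680 to 3038698. Their −log10 q ran from 4.38 to 6863 with a median of 3287, and their lengths from 126 to 4885 bp with a median of 1160 bp. The nearest protein-coding gene to the closest of them was Alkbh8, a tRNA-modifying enzyme gene, at a distance of 296924 bp. The cluster held the 5 longest downstream peaks, and these 23 peaks made up 33445 of the 127699 bp that all downstream peaks covered.

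**Figure D2:**
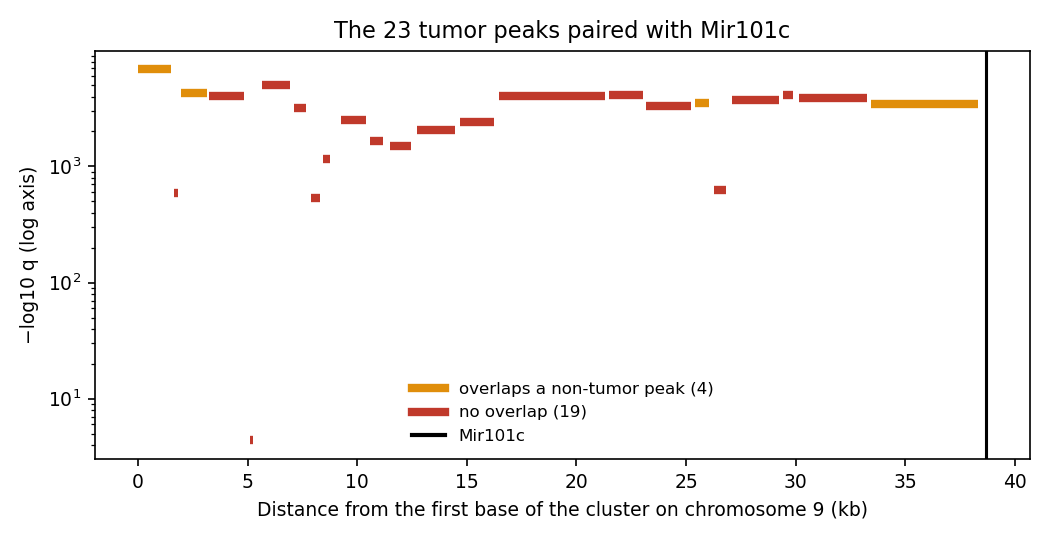
Each bar is 1 of the 23 tumor peaks paired with Mir101c, drawn to scale along the cluster (kb from its first base) at the height of its −log10 q (log axis); orange bars overlap a non-tumor peak and the black line is Mir101c. Most bars lie above 1000 and run almost end to end, with a single peak of 4.38 far below the rest.

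The second cluster, on chromosome 2 from 98662245 to 98667306, held 4 peaks at 1030573 to 1034889 bp past the end of Lrrc4c, which encodes an adhesion protein of synapses. It had the strongest peak of the tumor list, 25412 (98666561 to 98667306), beside peaks of 2457, 1332 and 380.8. The third, on chromosome 14 from 19415721 to 19419450, held 6 peaks of 748.1 to 8609 paired with Gm2237, a predicted protein-coding gene 144351 bp or more away. In all 3 clusters every tumor peak was downstream of its paired gene, and each cluster was paired with a single gene. Whether the clusters lie in repeated sequence was not tested.

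Positions shared with liver without tumor were mostly of this class. Of the 14 tumor peaks on assembled chromosomes that overlapped a non-tumor peak by 1 bp or more, 11 were downstream (78.6%, 49.2 to 95.3). That is 2.64% of the downstream peaks (1.32 to 4.67), against 0.917% of all tumor peaks on assembled chromosomes and 2 of 724 upstream peaks (0.276%, 0.0335 to 0.994). The 11 had ranks of 1 to 275 by strength among downstream peaks, with a median rank of 7. Of the 11, 8 lay in the 3 clusters, with 4 at Mir101c, 2 at Lrrc4c and 2 at Gm2237. Outside clusters the overlap was 3 of 384 downstream peaks (0.781%, 0.161 to 2.27) and 2 of 715 upstream peaks (0.280%, 0.0339 to 1.01), and these intervals overlap.

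The other 3 shared peaks were at 4933422A05Rik, 1700010I14Rik and Ofcc1. At the long noncoding RNA gene 4933422A05Rik (chromosome 9, 35305232 to 35305579) the tumor peak had a −log10 q of 6712 and the non-tumor peak 1924. At 1700010I14Rik (chromosome 17, 9030785 to 9031248) the values were 323.7 and 2.80. At Ofcc1 (chromosome 13, 39749903 to 39750055) they were 4.40 and 17.9, which made it the 1 shared position of 11 where the tumor value was not the higher. The lists come from libraries of unknown depth, so these pairs of values are not a change between tissues. The non-tumor list had 19 downstream peaks paired with 12 genes, and 6 of those genes were also paired with tumor downstream peaks, which is 50% of the 12 and 1.70% of the 353 tumor genes. The other 6 included Axin2, a feedback inhibitor of Wnt signalling (7.61).

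Outside clusters the strongest downstream peaks lay past genes of varied function, mostly at long distances. After 4933422A05Rik came a peak of 754.0 past Plk2, a polo-like kinase gene (chromosome 13, 110609321 to 110609679), at a gap of 208477 bp. Gaps are counted from the gene's edge to the nearer edge of the peak. Gpr151, an orphan receptor gene, had a peak of 334.5 at 19140 bp. A peak of 162.6 past the tight junction gene Cldn23 (chromosome 8, 35796432 to 35796560) lay over another protein-coding gene, Gm19410. Rftn1, a lipid raft protein gene, had a peak of 286.8 (chromosome 17, 49940999 to 49941469) at 51789 bp, but the kinesin gene Kif6 was closer to it at 31152 bp. The potassium channel gene Kcnh5 had one of 233.3 at 92714 bp, Gm4832 one of 184.8 at 89372 bp, and Klf5, a transcription factor gene of growing epithelia, one of 147.6 at 151347 bp beside a second of 5.54 at 154531 bp. The peak past Adgb, the androglobin gene, was the exception among these 10 in distance, with 332.8 at a gap of 94 bp (chromosome 10, 10335293 to 10335609).

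Downstream peaks were somewhat longer than the others. Their median length was 201 bp (189 to 221), against 177 bp upstream (171 to 187) and 180 bp inside genes (171 to 190). Outside clusters it was 195 bp (185 to 206), an interval that overlaps the upstream one, and 0 of 384 downstream peaks there reached 1000 bp, against 13 of all 417. Longer peaks were also stronger: outside clusters the 119 peaks under 150 bp had a median −log10 q of 4.46, the 171 from 150 bp to under 300 bp had 5.54 and the 94 of 300 bp or more had 12.6. A −log10 q carried by 10 or more tumor peaks was seen in 225 downstream peaks (54.0%, 49.0 to 58.8), in 59.5% of upstream peaks and in 57.0% of all on assembled chromosomes, and the single value 4.33 in 28.

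**Figure D3:**
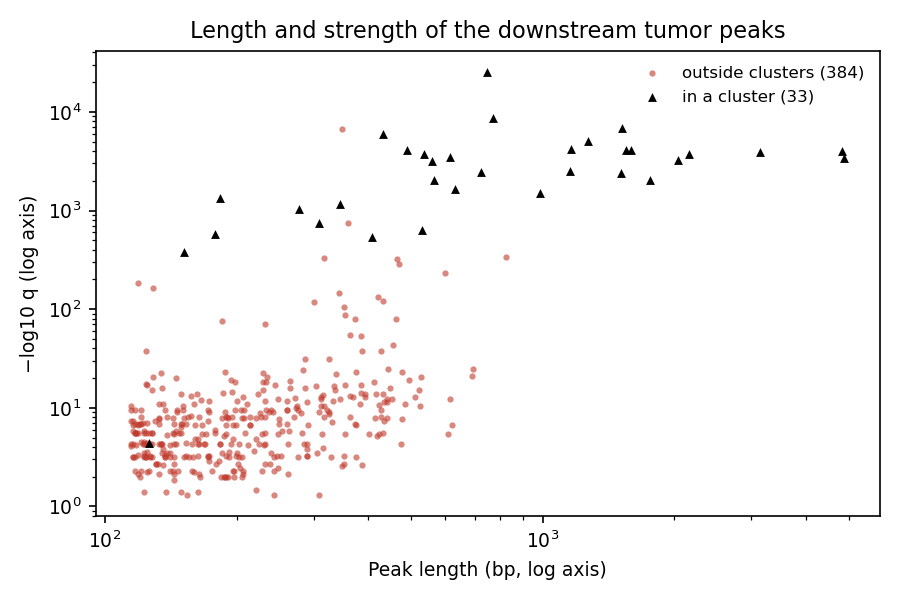
Each point is 1 of the 417 downstream peaks, plotted by length (bp, log axis) and −log10 q (log axis), with triangles for the 33 in clusters. Values rise with length outside clusters, and all but 1 of the triangles lie above 100.

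The paired gene was usually far away. The gap was known for 416 of the 417 peaks, since the gene name Dux was not found in the RefSeq gene table. Its median was 48978 bp (37608 to 63908) downstream and 33107 bp (29328 to 42011) upstream, and the 2 intervals overlap. Outside clusters the medians were 53257 bp (44375 to 66222) and 34251 bp (29690 to 43439), and these intervals do not overlap. A gap of at most 10 kb was found for 81 of 416 downstream peaks (19.5%, 15.8 to 23.6), against 20.7% of upstream and downstream peaks together. Beyond 100 kb lay 137 peaks up to 1 Mb away and 8 over 1 Mb.

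**Figure D4:**
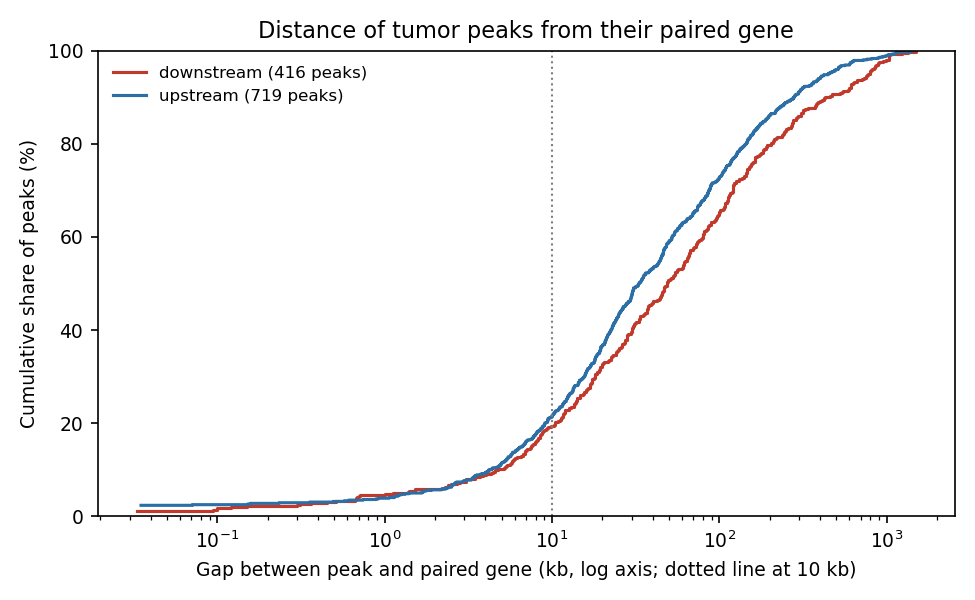
Cumulative share (%) of the 416 downstream and 719 upstream tumor peaks with a known gap against the gap to the paired gene (kb, log axis); peaks with a gap of 0 are counted but lie off the axis. The curves run together up to about 10 kb, where 19.5% of downstream and 21.4% of upstream peaks have been counted, and the downstream curve lies lower beyond it.

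The median strength showed no steady trend with distance from the gene. Outside clusters the median −log10 q was 6.30 for the 18 downstream peaks at most 1 kb from their gene, 5.60 for the 59 at 1 to 10 kb, 6.66 for the 171 at 10 to 100 kb and 6.68 for the 131 at 100 kb to 1 Mb. A value of 10 or more was reached by 6, 16, 50 and 36 of these peaks, which is 33.3%, 27.1%, 29.2% and 27.5%. The 4 peaks over 1 Mb away had a median of 4.91 and none reached 10.

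Of the 10 peaks closest to their genes, those at Adgb (332.8) and 1 of 2 at Samd5 exceeded 10. Among these 10, 4 that the authors call downstream lay within the RefSeq span of their gene: 2 at Samd5 (12.9 and 8.18), 1 at Zfp648 (4.33) and 1 at Vipr2, a receptor gene for vasoactive intestinal peptide (2.46). The next were at gaps of 33 bp from the long noncoding RNA gene 4933407I05Rik (5.54), 99 bp from Crisp4, a gene of secreted proteins of the male tract (8.14), 120 bp from the mitochondrial NAD carrier gene Slc25a51 (3.56), 150 bp from 1500015L24Rik (5.48) and 299 bp from the tight junction gene Cldn11 (3.20). Of all peaks with a gap of at most 1 kb, there were 19 downstream (4.57%, 2.77 to 7.04) and 28 upstream (3.89%, 2.60 to 5.58).

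The pairing names a gene that need not be the closest one. Closeness was measured here between nearer edges in the RefSeq gene table, which may differ from the authors' annotation and distance rule. The paired gene was the nearest annotated gene for 118 of the 417 downstream peaks (28.3%, 24.0 to 32.9) and for 175 of 724 upstream peaks (24.2%, 21.1 to 27.5). Among the 258 downstream peaks paired with a protein-coding gene, it was the nearest protein-coding gene for 188 (72.9%, 67.0 to 78.2), and upstream for 390 of 551 (70.8%, 66.8 to 74.5). A downstream peak lay over another annotated gene in 114 cases (27.3%, 23.1 to 31.9), against 23.1% of all tumor peaks on assembled chromosomes and 29.6% of upstream peaks, and over another protein-coding gene in 78 cases. All 3 peaks paired with Clip4, a microtubule-linker gene (chromosome 17, 71913626 to 72032102, 8.14 to 9.40), lay over Alk, a receptor tyrosine kinase gene. Of the 325 peaks whose gene had a listed strand, 321 lay past the gene's end by that strand and 0 before its start.

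The kinds of gene differed between the classes. Of the 416 downstream peaks with a matched gene, 258 (62.0%, 57.2 to 66.7) were paired with a protein-coding gene, 104 (25%, 20.9 to 29.5) with a long noncoding RNA gene and 51 (12.3%, 9.27 to 15.8) with a microRNA gene. For the 719 matched upstream peaks the shares were 76.6% (73.4 to 79.7), 17.9% (15.2 to 20.9) and 3.20% (2.04 to 4.76). MicroRNA genes were paired with 4.98% of all tumor peaks on assembled chromosomes. Outside clusters the microRNA share was 28 of 383 downstream (7.31%, 4.91 to 10.4) and 23 of 710 upstream (3.24%, 2.06 to 4.82). The long noncoding RNA share there was 27.2% (22.8 to 31.9) against 18.2% upstream (15.4 to 21.2), and the protein-coding share 64.8% (59.7 to 69.5) against 77.0% (73.8 to 80.1). Paired protein-coding genes were shorter downstream, with a median length of 20218 bp (14407 to 25917), than upstream, with 35455 bp (28942 to 42703), and than those with the peak inside, with 114462 bp (96767 to 138616). The classes are themselves defined by position relative to the paired gene, and the pairing tool is not known. How far the class rule and the pairing set these lengths and gene types was not tested.

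**Figure D5:**
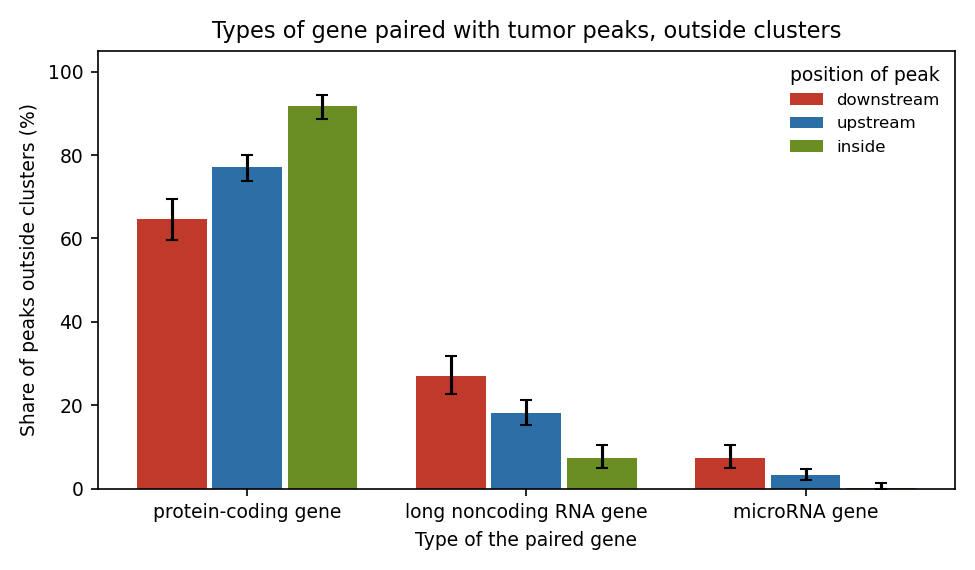
Bars give the share (%) of tumor peaks outside clusters whose paired gene is protein-coding, a long noncoding RNA gene or a microRNA gene, for each position of the peak; error bars are exact Clopper-Pearson 95% intervals. Downstream peaks have the lowest bar for protein-coding genes and the highest for both noncoding types, with 7.31% for microRNA genes against 3.24% upstream.

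Apart from Mir101c, 23 microRNA genes had 28 downstream peaks, at gaps of 3086 to 710964 bp with a median of 81099 bp. The strongest was a peak of 131.9 at 108838 bp past Mir3072 (chromosome 12, 109856798 to 109857218). Mir7232 had 3 peaks, of 37.8, 15.8 and 10.9, at 116747 to 306743 bp, and Mir6348 had 2, of 18.4 and 14.2. The median over the 28 peaks was 6.85. Of the well-known microRNA genes shown above, Mir204 had one of 8.14, over the channel gene Trpm3, at 183747 bp, and Mir365-2 one of 9.14 at 64875 bp. Mir31 had one of 4.33 at 5904 bp, and Mir129-1 one of 3.20 at 8023 bp, over the long noncoding RNA gene Lnclep.

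Few genes of the programs often tied to MYC, or of liver, were paired with these peaks, as was true of protein-coding genes in general. Of 345 genes on 15 lists, 6 were paired with a downstream peak, 14 with an upstream peak and 2 with a peak inside. Over all 21896 protein-coding genes, 230 (1.05%) were paired with a downstream peak, 502 with an upstream peak and 334 with a peak inside. For downstream peaks the lists do not stand below that background. None of the 8 downstream peaks of listed genes reached a −log10 q of 10, against 33.8% of all downstream peaks and 27.7% of all tumor peaks on assembled chromosomes, and 8 peaks are too few to read this as a difference. The lists of nucleolar and ribosome biogenesis genes (0 of 35), of polyamine, nucleotide and glycolysis genes (0 of 28), of the AKT and PI3K pathway (0 of 28), of the cell cycle and p53 pathway (0 of 30) and of hepatocyte genes (0 of 37) had no such gene. Markers of cholangiocytes, endothelium, macrophages, stellate cells and lymphocytes had none either, with 0 of 12 on each list. The 1 member of the MYC and MAX network was Hdac2, a histone deacetylase gene, with a peak of 3.20 at 8650 bp (chromosome 10, 37010539 to 37010690).

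The other 5 listed genes were Gpam, Lpin1, Psat1, Glul and Fgf21. Gpam and Lpin1, which encode enzymes of glycerolipid synthesis, had 2 peaks each. Those of Gpam were 7.88 at 270511 bp and 2.13 at 4340 bp (chromosome 19), and those of Lpin1 9.14 at 289617 bp and 4.33 at 276785 bp (chromosome 12). Psat1, of serine synthesis, had one of 7.88 at 638841 bp, and the glutamine synthetase gene Glul one of 2.87 at 112072 bp. The hepatokine gene Fgf21, whose E-box ends 44 bp before its start in the sequence shown above, had a peak of 5.54 (chromosome 7, 45613064 to 45613181) 709 bp past its end. As the gene spans 1601 bp, that peak lay 2309 bp from its start.

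Of the 353 paired genes, 320 had 1 downstream peak, 27 had 2 and 6 had 3 or more. After the 3 genes of the clusters these were 4930428D20Rik with 4 peaks spread over chromosome 16 from 69057820 to 69619841 (1.98 to 15.8), Mir7232 and Clip4. Gene families were chosen by symbol, and their enrichment was not tested. Among them, 4 secreted growth factor genes had 1 peak each, of which those of Fgf10 (6.70), Wnt2b (6.66) and Fgf21 (5.54) were the strongest. They made up 0.959% of downstream peaks, against 0.691% of upstream peaks for the same symbols, and the Wnt2b peak lay over St7l. Genes with homeobox or forkhead symbols had 5 peaks, led by Pou4f1 (10.9), Lhx3 (9.50) and Foxl1 (6.93). The 5 include Six3os1, a noncoding transcript matched by its symbol, and make up 1.20% of downstream peaks, against 1.24% of upstream peaks for the same symbols. The symbols searched missed other homeobox genes with stronger downstream peaks than Pou4f1, among them Shox2 (24.8), Dux (22.5) and Alx1 (18.4). They also missed Otx2 and En1, named below, so this count and these shares do not cover all homeobox genes. Solute carrier genes had 4, led by Slc15a5 (7.35), Slc45a1 (3.62) and Slc25a51. That was 0.959% of downstream peaks, against 1.80% of upstream peaks, and the Slc45a1 peak lay over Rere. The potassium channel genes Kcnh5 and Kcnj5 (76.1) held 0.480% of downstream peaks, against 1.10% of upstream peaks for that family. The Kcnj5 peak was closer to Arhgap32, at 18581 bp against 27498 bp. Glutamate and GABA receptor genes held 0.480% against 0% upstream, led by Grin2c (18.97), whose peak lay over Tmem104. The cadherin genes Pcdh9 (6.001), Cdh18 (4.33) and Cdh11 (1.98) held 0.719% against 0.138%. The chemokine system genes Ccl9 (5.80) and Cxcr4 (5.54) held 0.480% against 0.691%. Numbered gene models had 44, led after Gm2237 and Gm4832 by Gm45871 (87.3), and clone-named genes 73, led after 4933422A05Rik and 1700010I14Rik by 5031425E22Rik (20.3). These were 10.6% and 17.5% of downstream peaks, against 9.67% and 10.8% of upstream peaks. Slitrk6 (5.80), Efnb2 (5.48 and 2.70), Zfp521 (3.20), Krtap4-7 (9.50), Krtap10-10 (3.20), Adam6a (11.8) and Adam29 (3.52) were further family members with downstream peaks. Symbols of guidance genes held 0.719% of downstream peaks against 0.967% of upstream peaks, and zinc finger genes 0.480% against 1.24%. The guidance symbols matched Efnb2 and also Slitrk6, a leucine-rich synaptic adhesion gene matched only by its symbol. Keratin and keratin-associated genes held 0.480% against 0%, with the downstream peaks only at the keratin-associated genes Krtap4-7 and Krtap10-10. ADAM genes held 0.480% against 0.276%. The Krtap10-10 peak lay over Tspear and the Adam6a peak over Igh. The Adam29 peak was closer to Gm51595, at 8030 bp against 390469 bp. Olfactory receptor genes, which encode odorant receptors of the nose, had 1 downstream peak among 1428 genes, at Olfr16 (10.9). That was 0.240% of downstream peaks, against 0.552% of upstream peaks.

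With clusters set aside, the downstream share of tumor peaks differed among chromosomes, with overlapping intervals at its extremes. It ran over the autosomes from 15 of 82 peaks on chromosome 7 (18.3%, 10.6 to 28.4) to 29 of 75 on chromosome 12 (38.7%, 27.6 to 50.6). On chromosome 9 it was 47.1% with the Mir101c cluster and 32.1% without clusters. The X chromosome had 3 downstream peaks of 14 and the Y chromosome 2 of 4.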

How the data were processed

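The authors deposited 1 table of CUT&RUN peaks, with 1 anti-MYCN library for tumor and 1 for non-tumor liver, each called against input per the file's peak names. As tools, the submitters' processing notes list MACS2, HOMER, deepTools and Bowtie2, and as builds mm10 and GRCm38. Versions, settings and any excluded regions were not given in the sources used here, nor was the tool that paired peaks with genes. In the table as deposited, the q-value column holds −log10 q of each peak, judged from its lowest value of 1.30. Peak length and position are the authors' and are used as deposited.

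Paired genes were located by symbol in the RefSeq gene table of GRCm38.p6 (416 of 417 peaks), and strands and sequences came from RefSeq tables of that build. Shares have exact Clopper-Pearson 95% intervals and medians 95% order-statistic intervals from the binomial distribution. Overlap was taken at 1 bp with bedtools 2.31.1; other steps used Python 3.11.15, NumPy 2.4.6, SciPy 1.17.1, pandas 2.3.3 and matplotlib 3.10.9, and the functions for gaps, clusters and intervals were tested on simulated data.

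The members and lists were chosen with earlier results of these data known. Genes named are those of the 10 strongest downstream peaks outside clusters, the 10 with the smallest gap, genes with 3 or more peaks (at most 8), up to 4 genes per list, up to 3 per symbol family with at least 2 genes and the 5 longest peaks. Some genes that this rule selects are not reported here. Others named were chosen after their values were seen, among them the other microRNA genes, Faxc, Lgmn, Klf4, Axin2, Ofcc1, Olfr16, Shox2, Dux and Alx1. Alternatives were a stricter −log10 q, no clusters, every table row, scaffolds included, other distances and a reciprocal overlap of 50%. No test was run, as each group has 1 library.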

Additional observations from a re-analysis of the deposited data

Results flagged for a closer look

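One signal lay outside the assembled chromosomes that the comparisons use. On the unlocalized scaffold of chromosome 4 a tumor peak downstream of Dhrsx, a dehydrogenase gene, had a −log10 q of 68.5 and a length of 216 bp. Non-tumor liver had 0 downstream peaks on scaffolds, but 54 of its 55 peaks lay on assembled chromosomes. This 0 therefore cannot be read as a contrast between tissues. Of the 90 tumor peaks on scaffolds, 67 had no paired gene in the authors' table.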

How the results depend on the processing

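Over 44 alternative values of 8 results, 29 stayed within the 95% interval of the reported value and 15 did not. At or above the tumor median −log10 q, the downstream share of tumor peaks was 31.6%, the median length 273 bp, the median −log10 q 12.3 and the share at 10 or more 61.3%. Among peaks whose −log10 q reached 10, the downstream share was 33.3%, the median gap 37315 bp, the median length 351 bp, the median −log10 q 20.4, the share overlapping a non-tumor peak 7.09% and the share over another gene 20.6%. These peaks are stronger by construction. Without clusters, the share at 10 or more was 28.4% and the share overlapping a non-tumor peak 0.781%, as 8 of the 11 shared peaks lie in clusters. The share within 5 kb of the paired gene was 10.1% and within 50 kb 50.7%, and the share over another protein-coding gene 18.7%, by construction. The share at 10 or more was not run among peaks already at that value. Counting every row or including scaffolds moved none of the results beyond its interval. No paired analysis was possible because there was 1 library in each group. How many peaks could be called depends on sequencing depth, which is not known here.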

Other observations

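The peaks given here are single examples, picked by gene name after their values were seen, and enrichment of such genes was not tested. The insulin gene Ins1 had 2 peaks, of 18.8 at 222899 bp and 2.29 at 59824 bp (chromosome 19), and the glucagon gene Gcg had one of 1.98 at 1387 bp (chromosome 2, 62472955 to 62473143). Hcar2, a receptor gene for ketone bodies and niacin, had 2 peaks, of 3.27 and 2.29, at 7884 and 7597 bp (chromosome 5). The melanocortin receptor gene Mc4r (6.45), the appetite peptide gene Cartpt (5.37), the branched-chain aminotransferase gene Bcat1 (9.14) and the coactivator gene Ppargc1a (2.29) had peaks at 98650, 95224, 73448 and 528738 bp. Each of these values except the stronger one at Ins1 is below 10.

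Some transcription factor and signalling genes were picked in the same way. Otx2, of forebrain development, had a peak of 10.4 at 7105 bp, Klf4, a pluripotency factor gene, one of 6.66 at 19907 bp, Sox17, of endoderm, one of 5.60 at 9928 bp, Twist1, of mesenchyme, one of 4.33 at 80895 bp, and En1 one of 3.20 at 21819 bp. The peak paired with Twist1 was closer to Hdac9, at 6732 bp. Among genes of growth factor signalling, the phosphatase gene Dusp6 had one of 14.1 at 60783 bp, Dusp7 one of 6.66 at 6711 bp, and the BMP signal transducer gene Smad5 one of 7.15 at 2502 bp.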
